A study of Mus musculus with 4 samples.

Results

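The genes described here are the ligands, receptors, Smad transducers and matrix partners of transforming growth factor beta (TGF-beta) and bone morphogenetic protein (BMP) signalling in the mouse renal cortex. They were taken by name, as every gene of the array whose symbol begins with Tgfb, Bmp, Smad, Inhb, Inha, Acvr, Ltbp or Gdf, leaving out Gdf15. This gave 42 genes of 9900 on the array, each read by 1 probe. The samples came from male C57BL/6J mice with an intact Icam1 gene (WT) or lacking ICAM-1 (KO), a leukocyte adhesion molecule. ICAM-1 deficient mice and their C57BL/6J controls were given streptozotocin, a toxin of pancreatic beta cells, at 200 mg/kg in citrate buffer at 8 weeks of age, or that buffer alone, and kidneys were taken 12 weeks later, at 20 weeks of age. ND-WT and ND-KO stand for the buffer-injected groups of the respective genotype, and DM-WT and DM-KO for the diabetic ones. Every group had 5 mice but only a single array, whose RNA may or may not have been pooled, a point the labels leave unsaid. A difference between a pair of arrays therefore has no replicate check and is given by its size.

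Ligands of this superfamily assemble a pair of type II and a pair of type I receptor kinases, which phosphorylate Smad proteins. TGF-beta and activins act mainly through Smad2 and Smad3, BMPs through Smad1, Smad5 and Smad8, and both branches share Smad4. In the kidney TGF-beta is known for driving matrix deposition, while Bmp7 is known as a tubule-derived factor that opposes it.

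Each spot carries a quality mark, and measured here means that the mark was usable. On this rule 18 of the 42 genes were measured on all 4 arrays, 6 on some and 18 on none. Of the 20 ligands 6 were measured on all arrays, 3 on some and 11 on none. Of the 11 receptors 7 were measured on all arrays, as were 2 of the 5 Smads and 3 of the 6 matrix and processing genes. Over all gene probes the usable share was 62.8% to 66.2% per array, lowest on DM-WT. The median background-subtracted intensity was 37.7 on DM-WT and 43.5 to 46.3 on the other arrays. Bacterial control probes on DM-WT read 0.84 of their ND-WT level before normalization. All 14 proximal tubule markers with a probe were measured on all 4 arrays, and 4 of 8 podocyte markers (Nphs1, Podxl, Cd2ap and Plce1) on none. The Icam1 transcript was not analysed here and gives no check of the genotype labels.

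Promoter sequences are shown for 3 of the genes named below, the ligand Bmp4, the receptor Acvr2b and the BMP target Id3. Each is the 250 bases before the RefSeq start of the gene, on the GRCm38.p6 build, read 5′ to 3′ on the strand of the gene. Capitals mark CAGAC or its reverse complement GTCTG, letters that Smad3 and Smad4 are known to bind.

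Bmp4, chr14:46390670-46390919, minus strand: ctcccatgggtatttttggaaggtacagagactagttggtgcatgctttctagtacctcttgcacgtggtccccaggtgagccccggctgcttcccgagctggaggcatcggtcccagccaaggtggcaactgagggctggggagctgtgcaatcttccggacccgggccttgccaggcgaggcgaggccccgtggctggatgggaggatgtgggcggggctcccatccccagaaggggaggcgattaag
Acvr2b, chr9:119401928-119402177, plus strand: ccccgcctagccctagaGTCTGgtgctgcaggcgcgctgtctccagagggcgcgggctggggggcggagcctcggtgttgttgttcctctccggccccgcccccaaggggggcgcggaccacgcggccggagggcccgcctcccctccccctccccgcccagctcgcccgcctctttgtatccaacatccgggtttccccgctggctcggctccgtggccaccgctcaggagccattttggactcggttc
Id3, chr4:136143572-136143821, plus strand: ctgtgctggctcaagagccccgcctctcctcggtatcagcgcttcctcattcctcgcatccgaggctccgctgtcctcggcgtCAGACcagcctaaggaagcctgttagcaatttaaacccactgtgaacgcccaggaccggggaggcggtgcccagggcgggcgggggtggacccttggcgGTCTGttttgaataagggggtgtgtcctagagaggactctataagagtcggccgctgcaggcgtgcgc

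The Bmp4 window held no CAGAC, that of Acvr2b held 1 and that of Id3 held 2. None of the 3 held GGCGCC, the palindrome that BMP-driven Smads are known to bind, searched on both strands. RefSeq promoters were read for 31 of the 42 genes, among them 13 of the 18 measured on all arrays. Entries on chromosome 18 were left out for these genes, but not for the shares of all genes given next. Of those 13, 8 held CAGAC and 3 held GGCGCC in at least 1 of their entries, against 45.8% and 10.8% of all 27025 genes counted the same way and 42.2% and 9.59% of the 32851 single promoters of this length. These are letter matches and show no binding.

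Levels below are log2 intensities after background correction and quantile normalization, and each compares 1 probe with itself across arrays. The correction adds an offset of 50 to each reading, which shrinks the differences of dim probes. Folds and counts at 1.5-fold are on this scale, and can be smaller than those of background-subtracted intensities. No level of one probe is set against another. Repeat spots of bacterial control probes had a log2 SD of 0.06 within each array. The log2 difference of 300 negative control spots had an SD of 0.05 to 0.08 between arrays.

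**Figure D1:**
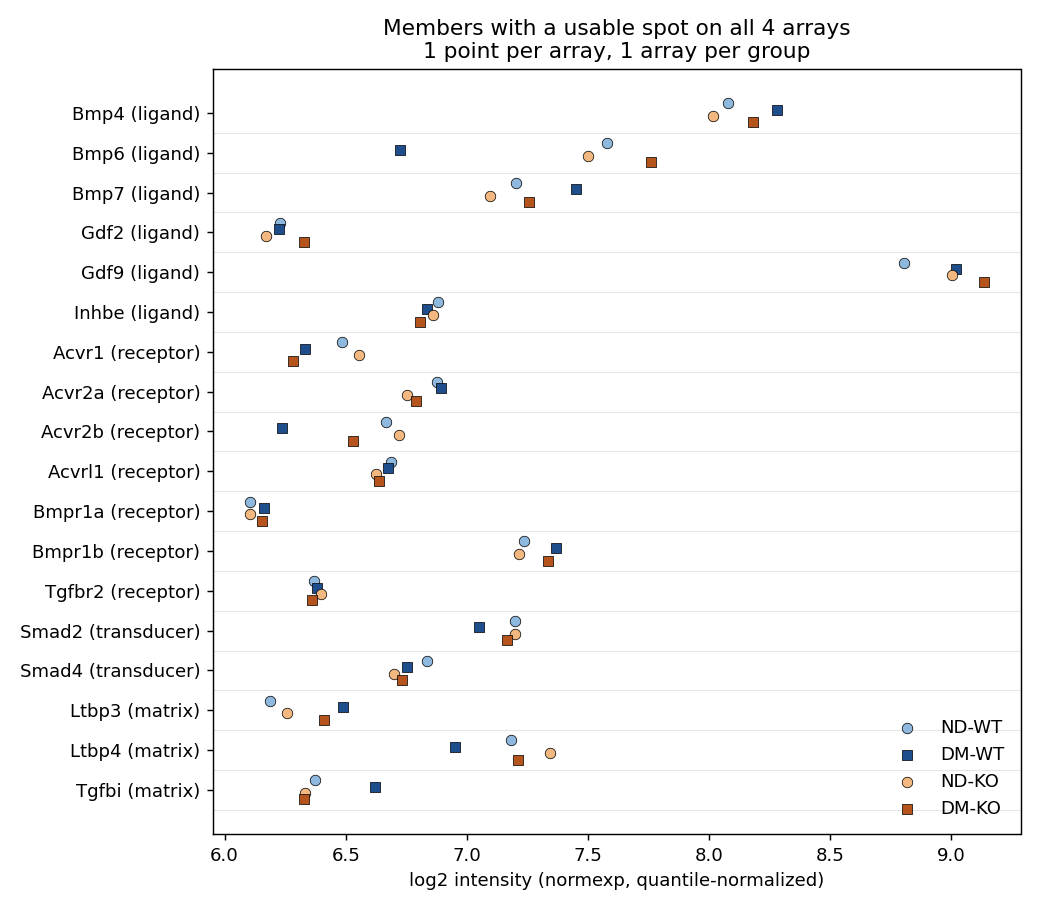
Log2 intensity of the 18 genes measured on all 4 arrays, with 1 point per array, circles for nondiabetic and squares for diabetic mice, blue for WT and orange for KO. Most genes keep their 4 points within a narrow range, and the DM-WT point of Bmp6 at 6.72 stands apart from the other three, at 7.50 to 7.76.

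Among the ligands, the TGF-betas themselves were at the edge of detection. Tgfb1, the main fibrogenic isoform, was not above background on any array, with 13.3 on ND-WT and 4.89 on DM-WT after background subtraction, and 6.22 and 15 on the KO arrays, ND-KO first. The negative controls had medians of 3.36 to 3.95 on the same scale. Tgfb2, an isoform of kidney development, was measured only on DM-KO, at 20.8 against 15.1, 16.0 and 15.6 on ND-WT, DM-WT and ND-KO. Both spots lie in columns 44 to 48 of the upper block, called the edge here. Of 287 edge probes usable on the other three arrays 232 were usable on DM-WT, against 302 of 310 in columns 39 to 43, and 167 of the 283 with a DM-WT reading were below ND-WT, with a median log2 difference of -0.05 against 0.00. Tgfb3 was measured on both WT arrays, at log2 6.23 on ND-WT and 6.19 on DM-WT, and was not well above background on ND-KO or DM-KO. Its WT level was at least 1.13-fold that of KO in nondiabetic mice and at least 1.09-fold in diabetic mice. A change of Tgfb1 or Tgfb2 that stays below background was thus not detectable on these arrays.

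Bmp4, which patterns the nephric stroma and ureter, stood at log2 8.08 on ND-WT and 8.28 on DM-WT, and at 8.02 on ND-KO and 8.18 on DM-KO. Both diabetic arrays were above both nondiabetic arrays, by 0.20 in WT and 0.16 in KO, although median scaling in place of quantile normalization left 0.05 in WT. Bmp7 stood at 7.20, 7.45, 7.09 and 7.26, in the order WT before KO and nondiabetic before diabetic that all rows of 4 values follow. It was higher with diabetes in both genotypes, by 0.25 in WT (0.16 with median scaling) and 0.16 in KO, and lower in KO than in WT in both states, by 0.11 and 0.19. In whole tissue, a change in the number of cells of a type and a change in RNA per cell cannot be told apart.

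Bmp6, a ligand known for inducing hepcidin and made also by tubule cells, differed most. It stood at 7.58 on ND-WT and 6.72 on DM-WT, and at 7.50 on ND-KO and 7.76 on DM-KO, so that 1 array was low and the other three lay within 0.26. Its level on DM-WT was 1.81-fold lower than on ND-WT and 2.05-fold lower than on DM-KO, whereas DM-KO was 1.20-fold above ND-KO. The background-subtracted intensities were 147, 48.7, 137 and 178.

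The Bmp6 spot lies in the last printed column of the array, column 48, in row 5 of the lower block. In rows 1 to 15 of that column 6 probes, Bmp6 included, were measured on all arrays, and all 6 were lower on DM-WT than on ND-WT, with a median log2 difference of -0.51 and a range of -0.86 to -0.08. In columns 43 to 47 of the same rows the median of 33 probes was 0.03, and 15 were lower. In the KO pair 2 of the 6 probes of column 48 were lower, with a median of 0.25. The rows of that column past row 15 were not summarized, so a low reading of the whole column is not shown. With the upper edge left out, 43 of 5827 genes were at least 1.5-fold lower on DM-WT than on ND-WT. Leaving out all of column 48 as well made this 41 of 5780, and genes higher by any size went from 2698 to 2671. With column 48 left out, a setting added after the data were seen, Bmp6 had no value. How much of its low DM-WT reading belongs to the position was not tested.

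**Figure D2:**
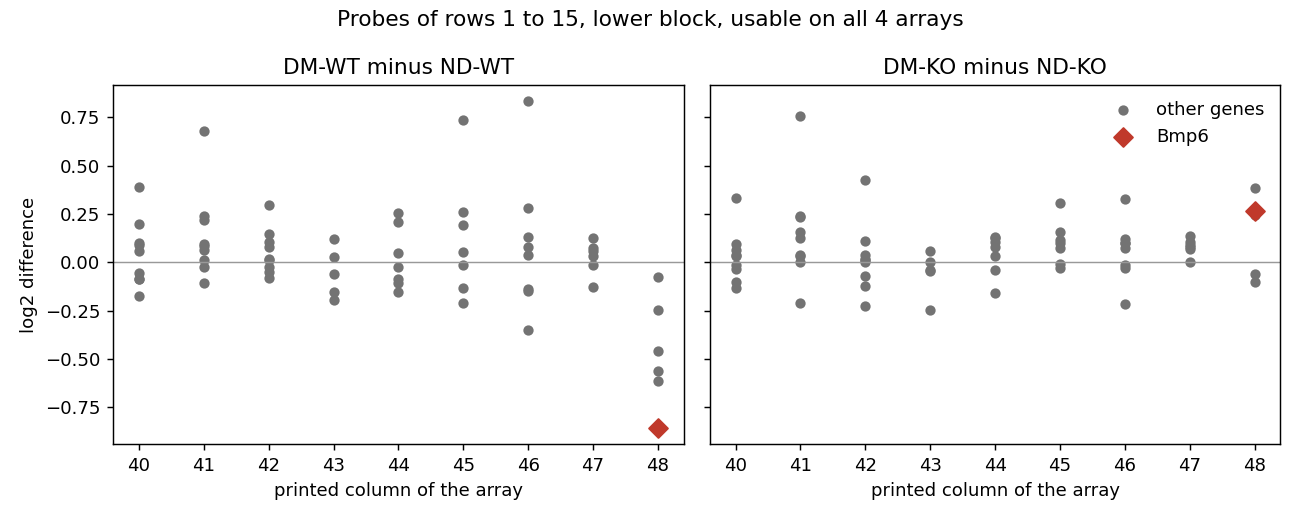
Log2 difference of diabetic minus nondiabetic arrays, WT at left and KO at right, against the printed column, for probes of rows 1 to 15 of the lower block measured on all 4 arrays. Grey points are other genes and the red diamond is Bmp6. In WT all 6 points of column 48 lie below 0, with Bmp6 lowest at -0.86, and in KO 2 of the 6 do.

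The remaining ligands stayed close together across arrays. Gdf9, best known from the oocyte, stood at 8.81 on ND-WT and 9.02 on DM-WT, and at 9.00 on ND-KO and 9.14 on DM-KO, higher with diabetes by 0.21 (0.04 with median scaling) and 0.13. Gdf2, the circulating ligand BMP9, ranged from 6.17 to 6.33, and Inhbe, an activin subunit known from liver, from 6.81 to 6.88. Bmp8a was measured only on DM-KO, at a background-subtracted 16.3 against 9.16 to 15.3 elsewhere. Bmp2, Bmp5, Bmp8b, Gdf1, Gdf3, Gdf5, Inha, Inhba, Inhbb and Inhbc were not above background on any array. Bmp2, an osteogenic ligand, gave 7.79, 5.27, 6.07 and 8.76 in the same order of arrays. The activin subunit Inhba gave 13.4, 13.4, 15.9 and 14.7, and its relative Inhbb 2.89, 4.59, 4.02 and 4.02.

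Among the receptors, both the activin type II receptor Acvr2b and the BMP type I receptor Acvr1 were lower on the diabetic arrays of both genotypes. Acvr2b stood at 6.66 on ND-WT and 6.24 on DM-WT, and at 6.72 on ND-KO and 6.53 on DM-KO, a difference of -0.43 in WT and -0.19 in KO. Acvr1 stood at 6.48, 6.33, 6.55 and 6.28, a difference of -0.15 in WT and -0.27 in KO. For both, neither diabetic array reached either nondiabetic one.

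The TGF-beta type II receptor Tgfbr2, which binds the ligand first, read 6.37, 6.38, 6.40 and 6.36. Its background-subtracted intensities were 33.5, 29.2, 36.8 and 35.3. The log2 range was below the spread of repeat control spots within an array, which does not measure the spread between arrays. The BMP type I receptor Bmpr1a read 6.11, 6.16, 6.10 and 6.15. Its relative Bmpr1b read 7.24, 7.37, 7.21 and 7.34, higher with diabetes by 0.13 in WT (0.05 with median scaling) and 0.12 in KO. The endothelial type I receptor Acvrl1, known as ALK1, read 6.69, 6.68, 6.63 and 6.64, and Acvr2a ranged from 6.75 to 6.90. These 4 receptors and Tgfbr2 differed by at most 0.13 with diabetes.

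The betaglycan gene Tgfbr3, a co-receptor that presents TGF-beta, was measured on 3 arrays, at 6.10 on ND-WT and, in KO, at 6.11 on the nondiabetic and 6.05 on the diabetic array, and was not well above background on DM-WT. Acvr1b, the activin type I receptor ALK4, was measured only on ND-WT, at a background-subtracted 43.9 against 12.6 on DM-WT and 3.33 and 4.54 on the KO arrays. Its ND-WT level was at least 1.39-fold that of DM-WT and at least 1.44-fold that of ND-KO. The type I receptor Tgfbr1 gave 11.0, 8.32, 9.72 and 9.99, and the BMP type II receptor Bmpr2 gave 8.60, 7.88, 5.45 and 9.22, neither above background on any array.

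Of the Smads, Smad2, a transducer of TGF-beta and activin, stood at 7.20 on ND-WT and 7.05 on DM-WT, and at 7.20 on ND-KO and 7.17 on DM-KO. Its DM-WT value was the lowest, 0.15 below ND-WT, while the KO pair differed by 0.04. The shared Smad4 stood at 6.83, 6.75, 6.70 and 6.73. The inhibitory Smad6 was measured on ND-WT at 6.06 and on DM-KO at 6.11, and read 5.97 on DM-WT and 6.00 on ND-KO without being well above background there. Smad3, the main transducer of fibrotic TGF-beta signalling, gave background-subtracted intensities of 7.99, 9.03, 9.61 and 11.4 and was not above background on any array, and neither was Smad5. For Smad3, Smad5, Tgfb1, Tgfbr1 and Bmpr2 alike, these probes cannot show a difference of any size that stays below background.

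The latent TGF-beta binding proteins, which store TGF-beta in the matrix, went in different directions. Ltbp3 stood at 6.19 on ND-WT and 6.49 on DM-WT, and at 6.26 on ND-KO and 6.41 on DM-KO, higher with diabetes by 0.30 in WT and 0.15 in KO. Ltbp4, a partner of elastic fibres, stood at 7.18, 6.95, 7.35 and 7.21, lower with diabetes by 0.23 and 0.13 and higher in KO than in WT by 0.16 and 0.26. For Ltbp3 both diabetic arrays lay above both nondiabetic ones, and for Ltbp4 the groups overlapped.

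Tgfbi, a matrix protein that TGF-beta is known to induce, stood at 6.38 on ND-WT and 6.62 on DM-WT, and at 6.33 on ND-KO and 6.33 on DM-KO. Its DM-WT value was 0.24 above ND-WT, and the KO pair was level. Ltbp1 gave background-subtracted intensities of 8.59, 10.6, 13.0 and 13.8 and was not above background on any array, as were Ltbp2 and the procollagen protease Bmp1.

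Counted together, few genes of the superfamily reached a 1.5-fold difference in any comparison. With diabetes in WT none of 19 measured on both arrays was at least 1.5-fold higher and 1, Bmp6, was lower, against 1.75% and 0.875% of 6055 genes. With diabetes in KO none of 19 was higher or lower, against 0.536% and 0.505% of 6339 genes. Between the diabetic arrays 1 of 18, again Bmp6, was higher in KO and none was lower, against 0.769% and 1.06% of 6111 genes. Between the nondiabetic arrays none of 19 was higher or lower, against 0.176% and 0.447% of 6258 genes. Their median log2 differences in those 4 comparisons were -0.00, 0.03, -0.02 and -0.02, and those of all genes were between -0.01 and 0.00. The comparisons share arrays, so they are not independent of each other.

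By sign alone, 7 of the 18 genes measured on all arrays were higher with diabetes in both genotypes, 5 were lower in both and 6 had opposite signs. Over all 5914 such genes the shares were 28.6%, 31.2% and 40.2%. In KO relative to WT, 4 of the 18 were higher in both states and 9 were lower, against 27.7% and 29.5%.

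A single limma fit with additive terms for diabetes and genotype used all 4 arrays. A gene's own spread was therefore only its departure from additivity. The SEs and p-values rest on that spread moderated over all genes tested. After Benjamini-Hochberg adjustment over 6512 genes, none of the 21 genes of the superfamily that could be tested passed an adjusted p of 0.05 for diabetes, against 0.0154% of all genes tested, and none passed for genotype, against 0.0461%. Before adjustment 6 of the 21 had a diabetes p under 0.05, against 12.8% of all genes. They were Bmp4, Bmp7 and Ltbp3 on the higher side and Acvr1, Acvr2b and Ltbp4 on the lower side. For genotype it was 1 of 21, Ltbp4, against 9.08%.

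Acvr2b had the lowest adjusted p for diabetes, 0.294 by limma with Benjamini-Hochberg adjustment, with an effect of -0.31 (SE 0.084). The effect of Bmp4 was 0.18 (SE 0.062, limma adjusted p 0.363), that of Bmp7 0.21 (SE 0.064, limma adjusted p 0.337) and that of Ltbp3 0.22 (SE 0.071, limma adjusted p 0.341). Acvr1 had an effect of -0.21 (SE 0.068, limma adjusted p 0.342). Bmp6 had an effect of -0.30 with an SE of 0.28, the widest of the 21, because its genotypes went opposite ways (limma adjusted p 0.714). The genotype effect of Ltbp4 was 0.21 (SE 0.065, limma adjusted p 0.488).

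**Figure D3:**
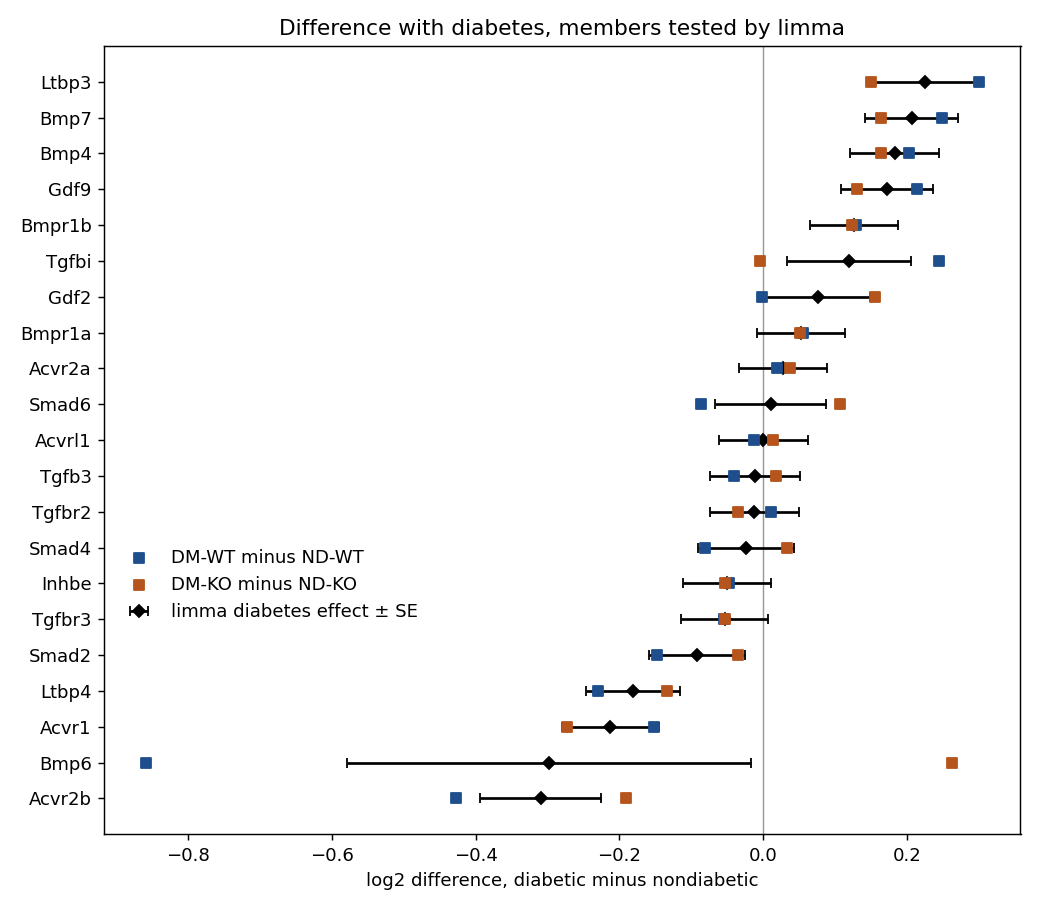
Log2 difference with diabetes for the 21 genes tested by limma, with blue squares for the WT pair, orange squares for the KO pair and black diamonds with bars for the limma effect ± SE. Bmp6 has the widest bar, with -0.86 in WT and 0.26 in KO, and no gene passed an adjusted p of 0.05.

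Genes that surround the pathway outside these name families were read from lists of extracellular antagonists, ligand-processing proteins, intracellular regulators and target genes. After adjustment none of their members passed in the limma fit described above. Of all genes, 50.1% were higher with diabetes in WT and 47.8% in KO.

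Of the 26 antagonists and binding proteins read, 20 had a probe and 12 were measured on at least 1 array. In WT 6 of 10 were higher with diabetes and in KO 9 of 11, against 50.1% and 47.8% of all genes, with medians of 0.12 and 0.11, and none reached 1.5-fold in either. Sostdc1, an antagonist made by distal tubule cells, stood at 9.01, 9.35, 9.28 and 9.57, higher by 0.34 in WT and 0.28 in KO (limma adjusted p 0.225). Its limma effect of 0.31 was 0.17 with median scaling. The proteoglycans biglycan (Bgn) and decorin (Dcn), which bind TGF-beta in the matrix, were higher by 0.53 and 0.51 in WT and by 0.23 and 0.19 in KO. Follistatin (Fst), which binds activins, was higher by 0.12 and 0.21. Chrdl1, a chordin-like BMP antagonist, was lower by 0.15 in WT and 0.36 in KO. Before adjustment 3 of the 12 tested had a limma p under 0.05 on the higher side and 1 on the lower side, against 6.83% and 5.94% of all genes.

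Of 25 genes known as BMP targets 19 had a probe. With diabetes 6 of 13 were higher in WT and 5 of 12 in KO, counts near the 50.1% and 47.8% of all genes. In KO relative to WT 4 of 12 were higher between the diabetic arrays and 4 of 13 between the nondiabetic ones, against 46.8% and 50.7% of all genes. Id3, a helix-loop-helix inhibitor and an immediate BMP target, stood at 9.40 on ND-WT and 9.12 on DM-WT, and at 9.14 on ND-KO and 8.81 on DM-KO. Id1, its relative, stood at 7.44, 7.27, 7.24 and 6.97. With diabetes Id3 was lower by 0.28 in WT and 0.33 in KO (limma adjusted p 0.226), and Id1 by 0.17 and 0.27 (limma adjusted p 0.325). Both were also lower in KO than in WT in both states. Msx2, a homeobox target, was higher by 0.46 in WT and lower by 0.04 in KO, and Tbx2 was lower by 0.26 and 0.05. Unc5b was 0.16 higher in WT and 0.18 lower in KO.

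Of 36 TGF-beta target genes read 30 had a probe, and 18 were measured on at least 1 array. Col1a1, Postn and Timp1, targets used to mark fibrosis, were not above background on any array. In WT 9 of 12 measured on both arrays were higher with diabetes and in KO 8 of 15, against 50.1% and 47.8% of all genes, with medians of 0.17 and 0.01, and none of these reached 1.5-fold. Before adjustment 5 of the 18 tested had a limma diabetes p under 0.05 on the higher side and 0 on the lower side, against 6.83% and 5.94% of all genes. For genotype 2 were higher in KO and 5 lower, against 4.41% and 4.67%. Between the diabetic arrays 3 of 13, Ccn2, Tsc22d1 and Cdkn1a, were at least 1.5-fold lower in KO and 1, Tnc, was higher, against 1.06% and 0.769% of all genes. Ccn2, the connective tissue growth factor, stood at 9.09 on ND-WT and 9.58 on DM-WT, and at 8.65 on ND-KO and 8.89 on DM-KO (limma adjusted p 0.260). It was higher with diabetes by 0.49 and 0.24 and lower in KO than in WT by 0.44 and 0.69. Its limma diabetes effect of 0.36 was 0.24 with median scaling. The smooth muscle gene Tagln was higher by 0.29 and 0.44 (limma adjusted p 0.219), and Acta2, the myofibroblast actin, by 0.24 and 0.04. Tsc22d1 was 0.39 higher in WT and 0.13 lower in KO, whereas tenascin C (Tnc) was 0.03 lower and 0.39 higher. The basement membrane collagen gene Col4a1 was measured on the WT arrays only, at 6.79 and 6.88. Its genotype effect, KO minus WT, was -0.76 (limma adjusted p 0.168, and 0.027 to 0.184 over the settings run, under 0.05 with the edge left out and with median scaling). Cdkn1a, the cell cycle inhibitor p21, was measured on both diabetic arrays, at 8.14 on DM-WT and 7.52 on DM-KO, and was not well above background on either nondiabetic one. It was at least 4.28-fold higher with diabetes in WT and at least 2.84-fold in KO (limma adjusted p 0.118, and 0.00720 to 0.157 over the settings run, under 0.05 with the edge left out and with median scaling). Only the diabetic mice had received streptozotocin, so diabetes and the drug cannot be told apart in the Cdkn1a difference. Jun was measured on the KO arrays only, 0.37 lower with diabetes, from a spot in the edge.

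**Figure D4:**
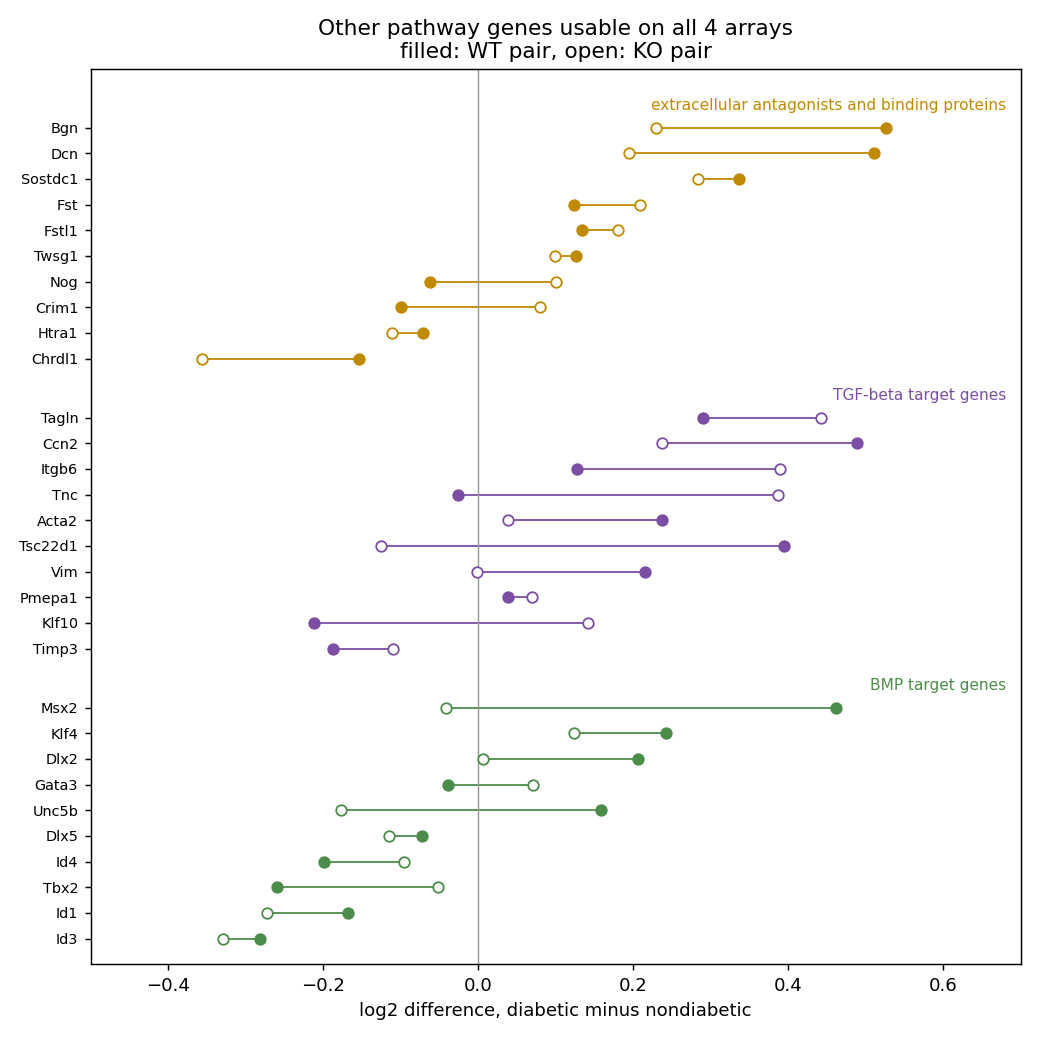
Log2 difference of diabetic minus nondiabetic arrays for antagonists, TGF-beta targets and BMP targets measured on all 4 arrays, with filled circles for WT and open circles for KO. Bgn and Dcn lie farthest right in WT, at 0.53 and 0.51, and Id3 and Id1 lie left of 0 in both genotypes.

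Of the ligands and processing proteins outside the name families, 23 of 31 had a probe. Tdgf1, the co-receptor of nodal, stood at 8.93, 9.31, 8.88 and 9.23, higher by 0.38 in WT and 0.36 in KO (limma adjusted p 0.176). Plat, the tissue plasminogen activator, was higher by 0.18 and 0.40, and Itgb6, a subunit of the integrin that frees TGF-beta from its latent complex, by 0.13 and 0.39. The metalloprotease Mmp14 was higher by 0.24 and 0.05. Fibrillin 1 (Fbn1), the microfibril protein that anchors latent TGF-beta, was 0.23 higher with diabetes in KO and was not well above background on ND-WT. Furin, the protease that matures TGF-beta and BMP precursors, was 0.62 lower in WT and 0.10 lower in KO, and its spot, like that of Bmp6, lies in column 48 of the lower block.

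Among the co-receptors 1 of 6 with a probe was measured, endoglin (Eng), higher by 0.11 and 0.15. Of 29 intracellular regulators with a probe 23 were measured on at least 1 array, 8 of 16 were higher with diabetes in WT and 8 of 21 in KO, against 50.1% and 47.8%, and none reached 1.5-fold. Among regulators measured on both arrays of a pair, those that differed most in WT were Ctdspl, a phosphatase, at -0.36, the docking protein Nedd9 at 0.25, Strap at 0.19 and the ubiquitin ligase Stub1 at -0.17. In KO they were the endocytic adaptor Dab2 at -0.31, the ubiquitin ligase Nedd4l at -0.28, the corepressor Tgif1 at 0.21 and the kinase Hipk2 at -0.17, the last from a spot in the edge.

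Markers of other cells differed beside these values. The summed linear level of 12 macrophage markers was 1323 on ND-WT and 2060 on DM-WT, and 1373 and 1666 on the matching KO arrays, with Adgre1 and Itgam not above background on any array, and 8 of 8 measured in WT were higher with diabetes, 4 of them by at least 1.5-fold, as were 7 of 7 in KO, none by 1.5-fold. As above, 50.1% and 47.8% of all genes were higher, and 1.75% and 0.536% by 1.5-fold. The sum of 10 thick limb and distal tubule markers was 9250, 12835, 9439 and 10271, and 9 of 10 were higher with diabetes in WT and 6 of 9 in KO. The sum of 11 smooth muscle, pericyte and fibroblast markers, a list that shares Acta2, Tagln, Dcn and collagens with those above, was 1498, 1747, 1548 and 1665, with Cnn1 and Col1a1 not above background on any array. The sum of 14 proximal tubule markers was 30569, 29581, 27979 and 24952, with 9 of 14 lower with diabetes in WT and 11 of 14 in KO. That of 11 collecting duct markers was 4678, 5161, 4014 and 5070, with 6 of 11 higher in WT and 10 of 11 in KO. Of 10 endothelial markers 7 were higher in WT and 6 in KO. The sum of 6 adipocyte markers, 2 of them measured on all arrays, was 2738, 2704, 3516 and 2124. That of 6 medulla and papilla markers was 4897, 5150, 5573 and 5492. The sum of 8 podocyte markers, 3 of them measured on all arrays, was 2455, 2457, 2499 and 2349. That of 12 lymphocyte markers, 4 of them measured on all arrays, was 1031, 1166, 1087 and 1098. Cd3e, Cd8a, Cd79b and Ms4a1 were not above background on any array. Between the diabetic arrays 2 of 5 lymphocyte markers were at least 1.5-fold lower in KO and 1 was higher, against 1.06% and 0.769% of all genes. For 3 red cell markers the sums were 256, 326, 292 and 284. The part of these cells in the values of Bmp6, Bmp7, Bgn, Dcn, Sostdc1, Tagln and Ccn2 was not tested.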

How the data were processed

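Total RNA of the renal cortex was labelled with biotin and read on 4 one-colour CodeLink arrays, per the labels. Scanner tables deposited by the authors hold, per the file headers, the mean intensity and median local background intensity of each of 10752 spots, unscaled, with another column of quality marks. The deposited value table holds intensity divided by 1 constant per array: it equalled spot mean minus background divided by 43.9, 38.1, 45.0 and 46.9 within 0.1% for at least 99.2% of 8815 probes. Its column medians were 0.926 to 0.930. How that constant was chosen is not given in the sources used here.

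Intensities were corrected with normexp (offset 50, all spots), converted to log2 and quantile-normalized with limma 3.58.1 in R 4.3.3, so the log2 values were computed from the deposited intensities. Poor spots were set to missing. Of 10032 gene probes 8923 were named by the platform annotation, 286 by accession, 1 had several symbols and 822 none. Where a probe was dim on 1 side, its bound used whichever was higher there, its own reading or the array's lowest usable one. The limma fit (diabetes and genotype, 1 residual degree of freedom, 6512 genes measured on at least 2 arrays, dim values entered as read) was run from code checked on simulated data. Alternatives were an offset of 16, no background correction, median scaling, the value table (pseudocount 1), no filter on dim probes, the DM-WT edge left out and other limma settings. The number of arrays limits the precision.

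Genes and lists were chosen with earlier results of these data known. All 42 genes are named. Full values are given for those at least 1.4-fold apart in any comparison and for a fixed set of core genes, and up to 4 genes per list and diabetes comparison with the largest differences are named. Of the list genes, 3 fibrosis markers at background, Cdkn1a and Col4a1 were named after their values were seen, and genes named only by accession, Fbn1 and Nedd9 among them, were put back into the lists after theirs were. Some listed genes are not reported here and were left out of the list counts.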

Additional observations from a re-analysis of the deposited data

Results flagged for a closer look

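Bmp6 was lower with diabetes in WT and higher in KO. The log2 difference in KO minus that in WT was 1.12. With 1 array per group this difference was not tested. It rests on the DM-WT array, where the 6 measured probes of rows 1 to 15 of column 48, Bmp6 among them, were all below ND-WT, and the part of that position in the value was not tested.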

How the results depend on the processing

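Each of the 4 comparisons and both limma effects were recomputed under the alternatives, and 102 of 106 recomputed counts and medians stayed within 1.5 times or within the spread of repeat spots. Counts of 0 that stayed 0 are among the 102. Only the offset of 16 greatly lowered the constant that every reading carries. The other alternatives therefore say little about how far that constant shrinks differences. Of 494 other values, single genes and list counts, 33 moved further, 17 of them with an offset of 16 and 10 with median scaling. With an offset of 16 the diabetes effect was -0.35 for Acvr1, -0.50 for Acvr2b, 0.39 for Ltbp3, -0.44 for Chrdl1 and 0.49 for Fbn1. With an offset of 16 the count of genes at least 1.5-fold lower on DM-WT than on ND-WT was 2, because Acvr2b, at -0.70, joined Bmp6, at -1.14. With the edge and column 48 left out, added after the data were seen, that count was 0 and the count higher on DM-KO than on DM-WT was 0, because Bmp6 then had no value. With no filter on dim probes the count lower on ND-KO than on ND-WT was 1, Acvr1b. In every limma setting run the count of genes of the superfamily that passed was 0 for both effects. The number of all genes that passed for diabetes was 1 of 6512 as reported, 95 of 6219 with the edge left out, 96 of 6165 without column 48 as well, 82 with median scaling, 19 with robust eBayes and 0 or 1 in the others. The adjusted p of Cdkn1a ranged from 0.00720 to 0.157 and was under 0.05 in 3 of 11, those without the edge and the one with median scaling. Median scaling put the median of all genes in WT at -0.08 and left the WT differences of Bmp4 at 0.05, Gdf9 at 0.04 and Bmpr1b at 0.05. The effect of Sostdc1 was 0.21 on the value table. No paired analysis was possible because each group has 1 array.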
